A study of Mus musculus with 28 samples.

Results

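The 29 genes described here carry the liver's supply of cholesterol. They comprise 19 enzymes of cholesterol synthesis, from acetyl-CoA to cholesterol, and 10 genes of its control, uptake, transport, storage and export. They were picked by name, as mouse genes of this pathway, and found on the array through the RefSeq accessions of its probes. All 29 were present, with 40 of the array's 55681 probes, among 37208 genes and unnamed transcripts. Where a gene had several probes, as 11 members did, the probe with the highest mean signal over all arrays stood for it.

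The livers came from 28 male mice of 3 kinds, each animal on 1 single-colour Agilent array. CD-1 mice, an outbred stock with its own receptors, ate a diet with 1500 ppm phenobarbital (PB) for 7 days or a diet with 0 ppm (n = 4 each). Mice labelled hCAR/hPXR ate 1000 ppm PB for 7 days or 0 ppm (n = 7 each). Such mice carry human CAR and PXR, receptors that induce drug metabolism, in place of the mouse ones. The labels state neither the promoter that drives them nor the strain background. C3H/HeNCrlCrlj mice ate 500 ppm PB for 27 weeks or 0 ppm (n = 3 each), and both C3H groups had first received 1 injection of 90 mg/kg diethylnitrosamine, a liver carcinogen. The labels give no ages, and do not state whether C3H samples were tumour or surrounding liver. Strain, dose, duration and carcinogen therefore differ together.

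Liver cells build cholesterol from acetyl-CoA by way of mevalonate, isoprenoid diphosphates, squalene and lanosterol. The transcription factor SREBP2, encoded by Srebf2, drives the genes of these enzymes. Its escort SCAP carries it out of the endoplasmic reticulum when sterols are scarce, and the INSIG proteins retain the pair when sterols are plentiful. Sterol excess works through the LXR receptors, which raise the sterol exporter ABCG5/ABCG8 and the ubiquitin ligase encoded by Mylip.

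SREBP2 binds sterol regulatory elements, and NF-Y, which binds CCAAT, and Sp1, which binds GGGCGG, are known partners at its target promoters. These motifs were looked for on both strands from 250 bases before to 50 bases after each RefSeq transcription start (build GRCm38.p6). CCAAT was found for 22 of the 24 members with an entry, against 41.1% of the 27025 genes in the table and 42.5% of the genes measured in hCAR/hPXR livers. Among the synthesis enzymes with an entry 15 of 16 held it, and Acat2 was the exception. GGGCGG was found for 19 of 24 members, against 38.2% of all genes and 64.2% of those measured. The element TCACNCCAC was found only for Hmgcs1 among the members, and for 1.44% of all genes. Fdps, Fdft1, Sqle, Stard4 and Soat2 had no entry. The 250 bases before the start are printed for 5 synthesis enzymes that were higher with PB in hCAR/hPXR livers and for Mylip, the member that fell there. Each has 1 annotated start and overlaps no other RefSeq gene. Capitals mark the CCAAT box, the GGGCGG box and, in Hmgcs1, the sterol regulatory element. On the opposite strand the CCAAT box reads ATTGG. The GGGCGG box reads CCGCCC there.
Hmgcs1 (chr13:119690101-119690350, plus strand): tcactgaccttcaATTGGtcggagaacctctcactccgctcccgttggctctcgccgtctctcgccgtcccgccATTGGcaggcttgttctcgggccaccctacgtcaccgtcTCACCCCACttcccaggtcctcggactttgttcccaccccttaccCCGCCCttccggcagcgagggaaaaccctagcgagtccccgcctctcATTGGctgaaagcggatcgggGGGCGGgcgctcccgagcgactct
Idi1 (chr13:8885356-8885605, plus strand): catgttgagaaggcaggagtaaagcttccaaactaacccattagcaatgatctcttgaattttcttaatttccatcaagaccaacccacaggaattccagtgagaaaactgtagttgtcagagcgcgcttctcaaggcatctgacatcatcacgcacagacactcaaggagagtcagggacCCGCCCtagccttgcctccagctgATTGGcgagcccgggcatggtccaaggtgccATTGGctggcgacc
Cyp51 (chr5:4104698-4104947, minus strand): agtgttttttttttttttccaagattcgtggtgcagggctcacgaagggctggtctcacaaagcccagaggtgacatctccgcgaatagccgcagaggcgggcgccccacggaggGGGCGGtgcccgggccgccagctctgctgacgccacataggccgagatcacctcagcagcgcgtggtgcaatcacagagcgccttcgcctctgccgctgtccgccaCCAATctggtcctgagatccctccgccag
Ebp (chrX:8193513-8193762, minus strand): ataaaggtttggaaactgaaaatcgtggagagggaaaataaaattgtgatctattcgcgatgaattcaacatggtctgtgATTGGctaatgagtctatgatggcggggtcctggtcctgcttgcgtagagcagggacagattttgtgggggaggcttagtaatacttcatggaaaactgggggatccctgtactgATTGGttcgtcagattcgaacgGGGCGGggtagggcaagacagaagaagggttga
Sc5d (chr9:42264301-42264550, minus strand): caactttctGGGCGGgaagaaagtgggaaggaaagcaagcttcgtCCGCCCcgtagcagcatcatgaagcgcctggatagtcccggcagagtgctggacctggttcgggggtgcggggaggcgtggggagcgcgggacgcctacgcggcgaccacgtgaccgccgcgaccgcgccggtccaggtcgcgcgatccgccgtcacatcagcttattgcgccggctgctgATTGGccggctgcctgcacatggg
Mylip (chr13:45389492-45389741, plus strand): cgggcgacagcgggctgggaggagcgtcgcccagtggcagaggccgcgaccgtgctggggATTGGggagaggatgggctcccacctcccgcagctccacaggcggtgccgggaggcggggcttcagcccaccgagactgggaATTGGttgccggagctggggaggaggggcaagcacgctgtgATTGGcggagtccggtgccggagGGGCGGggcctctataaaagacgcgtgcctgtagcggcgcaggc
Hmgcs1 held its sterol element 137 bases before the start and 3 CCAAT boxes in the stretch printed. Mylip held 3 CCAAT boxes as well, although its direction with PB was the opposite. Mvk held 5 CCAAT boxes before its start. Abcg5 and Abcg8 are read away from each other on chromosome 17, with 109 bases between their starts. A match of letters is a description and does not show that a factor binds there.

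Levels are given as the log2 of the background-subtracted signal minus the 75th percentile of the same array, so 0 is that percentile and a step of 1 is a doubling. Levels of different genes come from different probes and are not compared. Cyp2b10, the standard CAR target, lay between 9.63 and 10.08 in hCAR/hPXR PB livers, against 4.79 to 6.38 in their controls. It lay between 7.57 and 8.43 in CD-1 PB livers, against -0.21 to 2.39 in controls, and between 9.85 and 10.45 in C3H PB livers, against 3.97 to 4.72 in controls. All 8 hepatocyte markers were above background in every group. All CD-1 PB arrays lay on 1 slide and all CD-1 controls on another, so slide and treatment cannot be told apart there. In the hCAR/hPXR series PB animal 1 shared a slide with the 7 controls, and PB animals 2 to 7 lay on another. All C3H arrays shared 1 slide. A difference was called at an adjusted p under 0.05 (limma, Benjamini-Hochberg over all genes tested in that comparison). In whole liver, fewer cells of a type and less RNA per cell cannot be told apart.

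**Figure D1:**
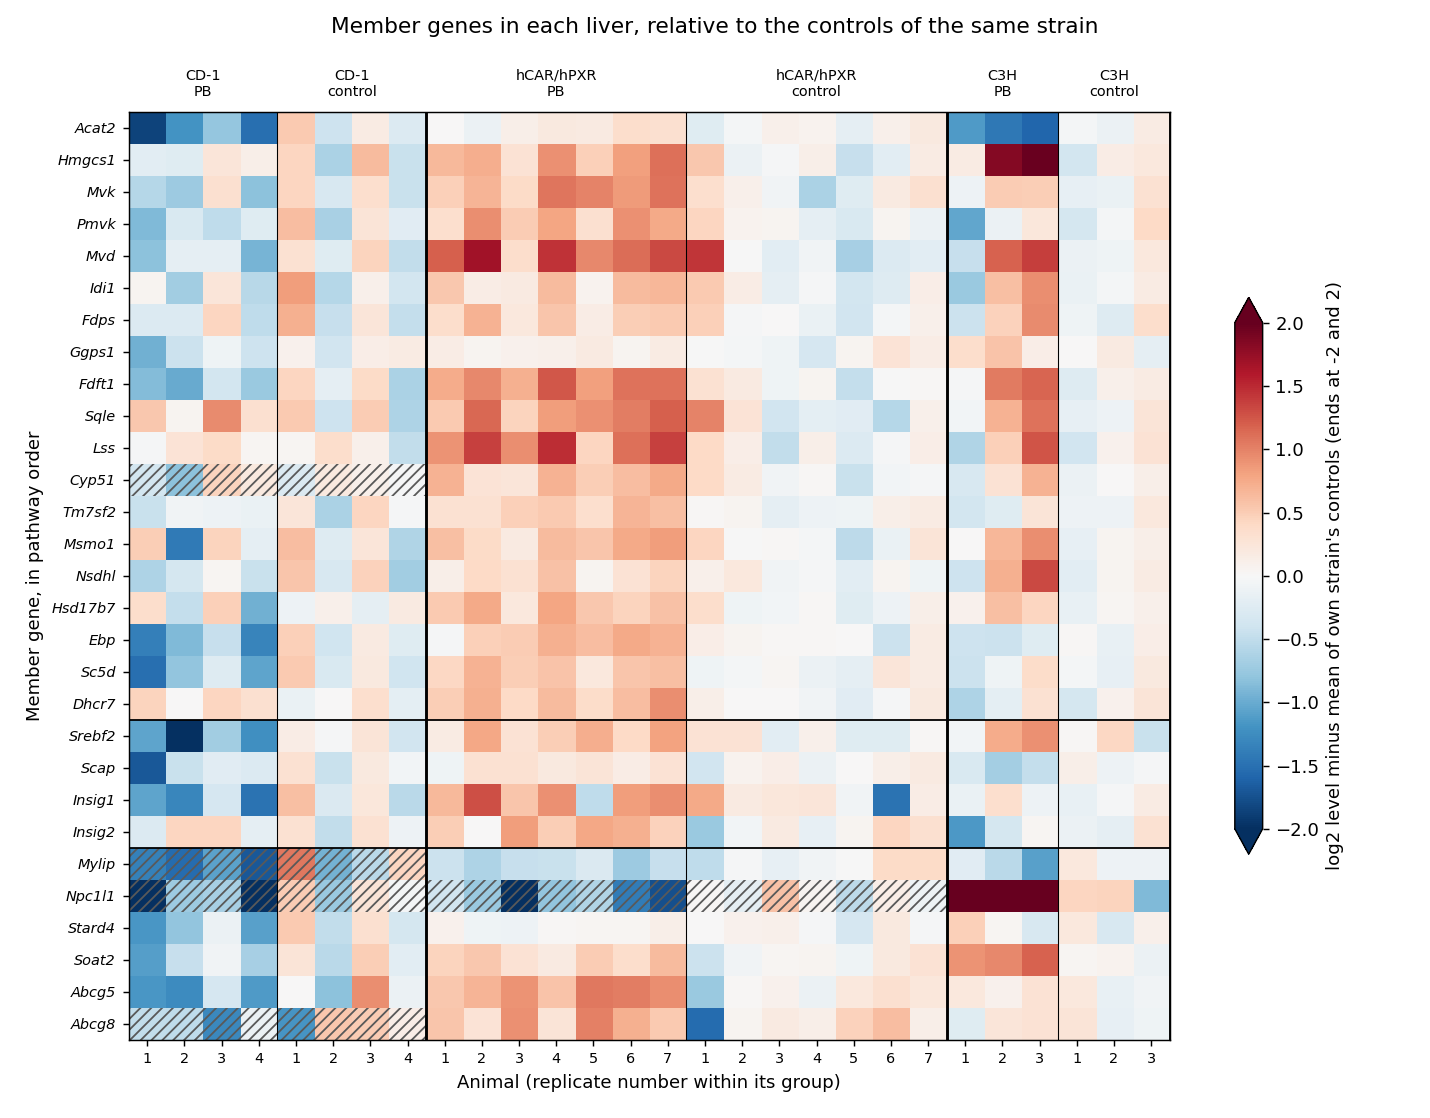
Each of the 29 members (rows, in pathway order) in each of the 28 livers (columns), as the log2 level minus the mean of the controls of the same strain; red is higher, blue lower, and hatching marks members not tested in that strain. Most synthesis enzymes are red across the 7 hCAR/hPXR PB livers and in C3H PB animals 2 and 3, but not in C3H PB animal 1.

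PB minus control in hCAR/hPXR mice asked how a short PB diet moved the pathway in livers with the human receptors. All 19 synthesis enzymes were higher on average with PB. Of these 17 rose, and the other two, Acat2 and Ggps1, differed by 0.15 ± 0.09 and 0.12 ± 0.08 log2 (SE). Of the 28 members tested, 21 rose and 1 fell. Among all 20037 genes tested, limma called 58.1%, with 35% higher and 23.2% lower. The median difference was 0.54 log2 over the members and 0.13 over all genes tested. It was 0.34 and 0.05 with quantile normalization, and 0.35 and -0.05 with the percentile taken over probes above background on all 28 arrays. Both gave 16 members higher and 1 lower, and under the percentile 37.2% of the calls over all genes were higher, against 60.2% as scaled here. The slides bear on these counts. PB animals 2 to 7 lay on a slide of their own, and with the slide as a block limma called 0 of 28 members (6 at an unadjusted p under 0.05, median 0.49). That fit rests on PB animal 1 against the controls.

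Mevalonate formation and use rose at each of its 4 enzymes after Acat2. Hmgcs1, which makes HMG-CoA, had a lowest, median and highest level of 7.28, 7.72 and 8.10 in PB livers, against 6.53, 6.98 and 7.54 in controls. The groups overlapped through control 1 at 7.54, and the difference was 0.71 ± 0.15 (adjusted p = 0.00118). Mvk, mevalonate kinase, had levels of 4.51, 4.97 and 5.22 in PB livers, against 3.49, 4.23 and 4.47 in controls. Every PB liver was above every control, by a mean of 0.79 ± 0.16 (adjusted p = 0.000854), and a second Mvk probe gave 0.86. Pmvk, phosphomevalonate kinase, had levels of 6.25, 6.69 and 6.86 with PB, against 5.62, 5.97 and 6.36 in controls. Its difference was 0.65 ± 0.13 (adjusted p = 0.000694), and control 1, the highest control, lay above the lowest PB livers. Mvd, which makes isopentenyl diphosphate, had the largest difference of all members, 1.15 ± 0.27 (adjusted p = 0.00243). Its levels were 1.99, 2.84 and 3.33 in PB livers, against 0.98, 1.44 and 3.07 in controls. Control 1, at 3.07, stood apart from the other controls, the highest of which was 1.64.

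The isoprenoid enzymes moved less. Idi1, the isopentenyl diphosphate isomerase, rose by 0.41 ± 0.14 (adjusted p = 0.0242), a call that was lost without control 5, PB animal 6 or PB animal 7. Fdps, which makes farnesyl diphosphate, rose by 0.43 ± 0.12 (adjusted p = 0.00782). Ggps1, which leads away from cholesterol to geranylgeranyl diphosphate, was not called.

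The enzymes that commit farnesyl diphosphate to sterols had some of the clearest differences. Fdft1, squalene synthase, had levels of 4.37, 4.62 and 4.90 in PB livers, against 3.18, 3.68 and 3.96 in controls. No PB liver overlapped a control, and the difference was 0.95 ± 0.12 (adjusted p = 2.75e-05). Sqle, squalene epoxidase, had levels of 4.97, 5.45 and 5.73 with PB, against 3.96, 4.34 and 5.52 in controls, a difference of 0.87 ± 0.21 (adjusted p = 0.00265). Here too control 1 was the highest control and reached into the PB range. Lss, lanosterol synthase, had levels of 1.55, 2.22 and 2.60 with PB, against 0.62, 1.24 and 1.52 in controls. Its groups were apart and its difference was 1.08 ± 0.17 (adjusted p = 0.000122).

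All 8 enzymes that turn lanosterol into cholesterol rose, by amounts between 0.32 and 0.59 with a median of 0.54. Dhcr7, the reductase of the last step of one branch, rose by 0.59 ± 0.09, and Tm7sf2, a sterol reductase, by 0.46 ± 0.08. Their PB livers were all above every control. Cyp51, which demethylates lanosterol, Msmo1, a sterol methyl oxidase, Hsd17b7, a keto-reductase, Ebp, a sterol isomerase, and Sc5d, a sterol desaturase, differed by 0.54, 0.56, 0.55, 0.54 and 0.51. Nsdhl, a sterol dehydrogenase, differed least, by 0.32 ± 0.09. The second probe of Hsd17b7 gave only 0.19 ± 0.13 and was not called, while those of Tm7sf2 and Nsdhl gave 0.55 and 0.35.

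Among the regulators Srebf2 had levels of 0.11, 0.43 and 0.76 in PB livers, against -0.29, -0.03 and 0.24 in controls. It rose by 0.52 ± 0.13 (adjusted p = 0.0031), but its second probe gave -0.07 ± 0.13, so the rise rests on 1 of 2 probes. Insig2 had levels of 5.94, 6.43 and 6.77 with PB, against 5.19, 5.98 and 6.36 in controls, and rose by 0.54 ± 0.17 (adjusted p = 0.014). Its second probe gave 0.23 ± 0.14 and was not called. Insig1, itself a target of SREBP2, had levels of 1.63, 2.97 and 3.43 with PB, against 0.65, 2.31 and 2.88 in controls. The difference of 0.67 ± 0.31 missed the threshold (adjusted p = 0.0776) and was called when either control 1 or PB animal 5 was left out. Scap differed by 0.20 ± 0.09 and was not called.

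Of the genes that take in, store and export cholesterol, the exporter subunit Abcg5 had the largest difference. Its levels were 5.04, 5.39 and 5.54 in PB livers, against 3.75, 4.57 and 4.81 in controls, with no overlap and a difference of 0.81 ± 0.15 (adjusted p = 0.000423). Its partner Abcg8 differed by 0.61 ± 0.27 (adjusted p = 0.0623), with control 1 at -2.63 and the other controls between -1.04 and -0.47. Without control 1, or without control 6, Abcg8 was called. Soat2, which stores cholesterol as esters, rose by 0.42 ± 0.11 (adjusted p = 0.00396). Mylip was the only member that fell, by 0.49 ± 0.13 (adjusted p = 0.0039), with levels of 0.46, 0.72 and 0.90 in PB livers, against 0.69, 1.16 and 1.57 in controls. Stard4, a sterol carrier, differed by 0.02 ± 0.08 (95% interval -0.15 to 0.19). Npc1l1, a cholesterol importer, was above background in 0 of 7 PB livers and 4 of 7 controls. It was not tested. With each PB liver raised to at least the dimmest signal counted as above background on its array, the mean was 1.30-fold lower with PB. That signal is not the detection limit of this probe, so 1.30 is no firm minimum.

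**Figure D2:**
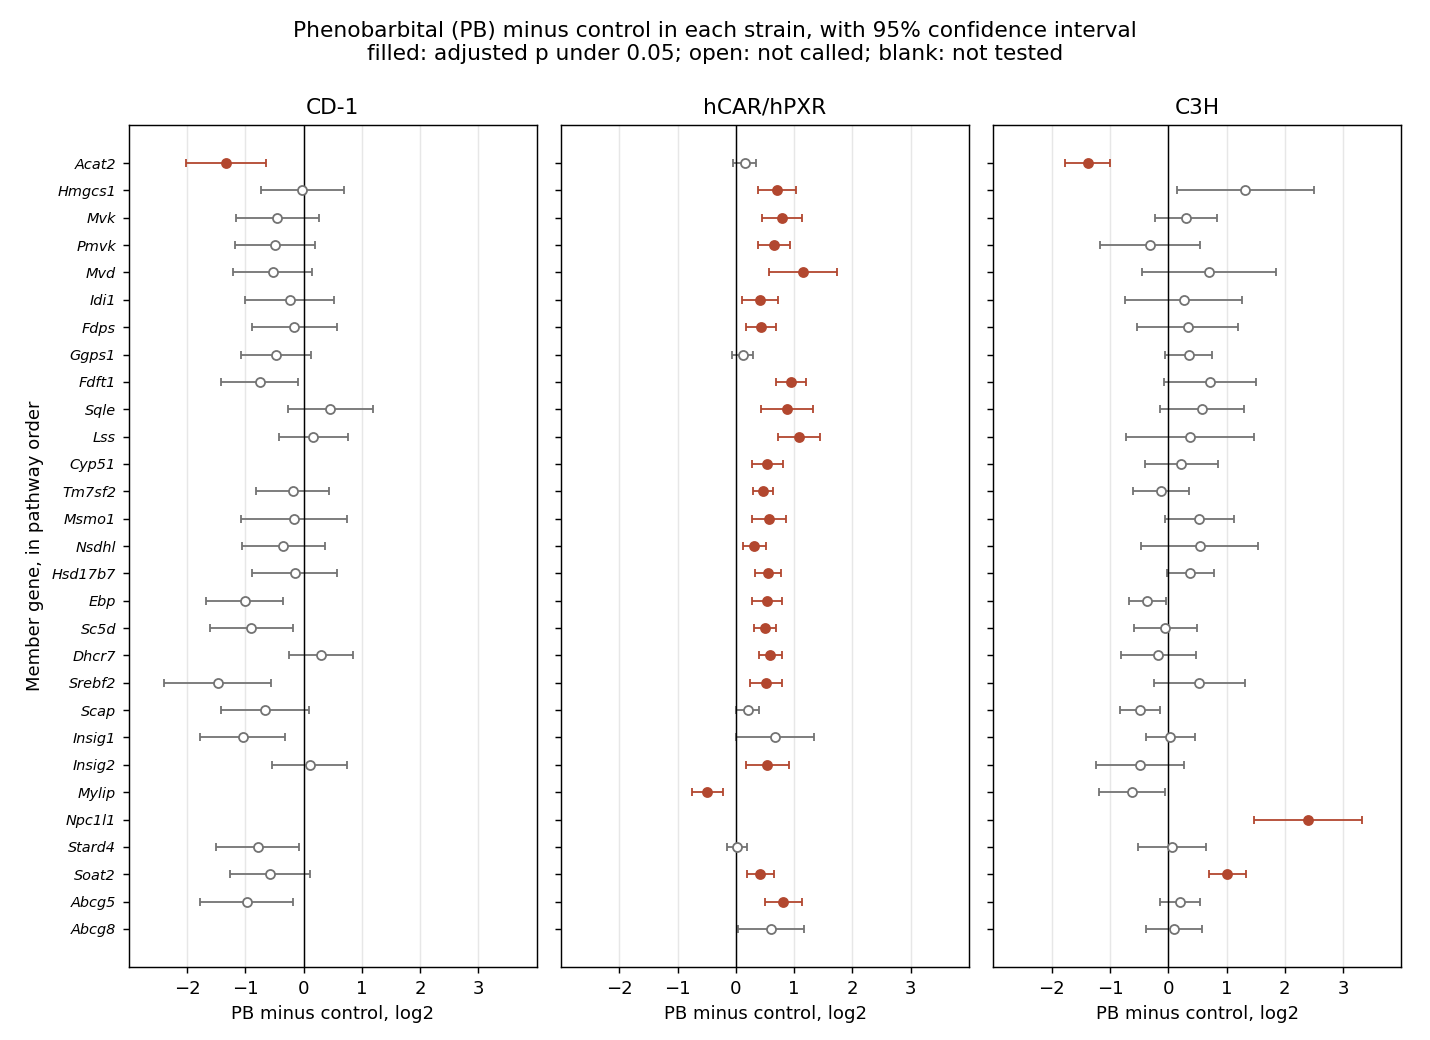
PB minus control (log2) for each member in CD-1, hCAR/hPXR and C3H livers, with 95% confidence intervals; filled points have an adjusted p under 0.05, open points do not, and blanks were not tested. In hCAR/hPXR livers 22 members are filled, in CD-1 livers 1 and in C3H livers 3. Npc1l1 in C3H livers passed the filter only through the PB livers.

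In hCAR/hPXR livers 6 members had groups that did not overlap, all of them higher with PB: Mvk, Fdft1, Lss, Tm7sf2, Dhcr7 and Abcg5. Of all genes tested, 12.2% did not overlap and were higher, and 8.13% did not overlap and were lower. PB animal 1, the only PB liver on the controls' slide, was above the control mean for 20 of the 21 members that rose, and above every control for 14. These 21 were called by a fit that includes this animal, so both counts are partly fixed in advance. No count was made over all genes called higher. Among the 19 synthesis enzymes, called or not, it was above every control for 11 and below every control for 0. Over all genes tested it was above every control for 23.4% and below every control for 17.4%. Untreated control 1, on the same slide, was above every other control for 12 of the 19 enzymes, against 16% of all genes. Control 5 was below every other control for 12, against 14.8% of all genes. The count for PB animal 1 therefore does not set it apart from single controls. Fdft1 was at 4.40 in this animal, against a highest control of 3.96, and Lss at 2.01 against 1.52. Ebp was at 7.57, below 6 of the 7 controls, and its difference turned to -0.022 with the slide as a block. Per animal, the median difference of the 19 synthesis enzymes from the control mean was 0.35 to 0.76 in PB livers and -0.25 to 0.35 in controls. Control 1 and PB animal 3 were level, at 0.35 each.

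Other lists moved in these livers too. All 10 tested cell cycle genes rose, with a summed level of 23.8 to 39.9 in PB livers, against 2.60 to 8.34 in controls. Among them Bub1 was above background on no control array, so it entered only through the PB livers and had to be higher there. Of 7 Kupffer cell markers 4 rose, with a summed level of 128 to 261 in PB livers, against 119 to 161 in controls. Of 8 hepatocyte markers 1 rose and 1 fell, with a summed level of 3595 to 5197 in PB livers, against 3848 to 4663 in controls. The part of these cells in the members' differences was not tested.

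**Figure D3:**
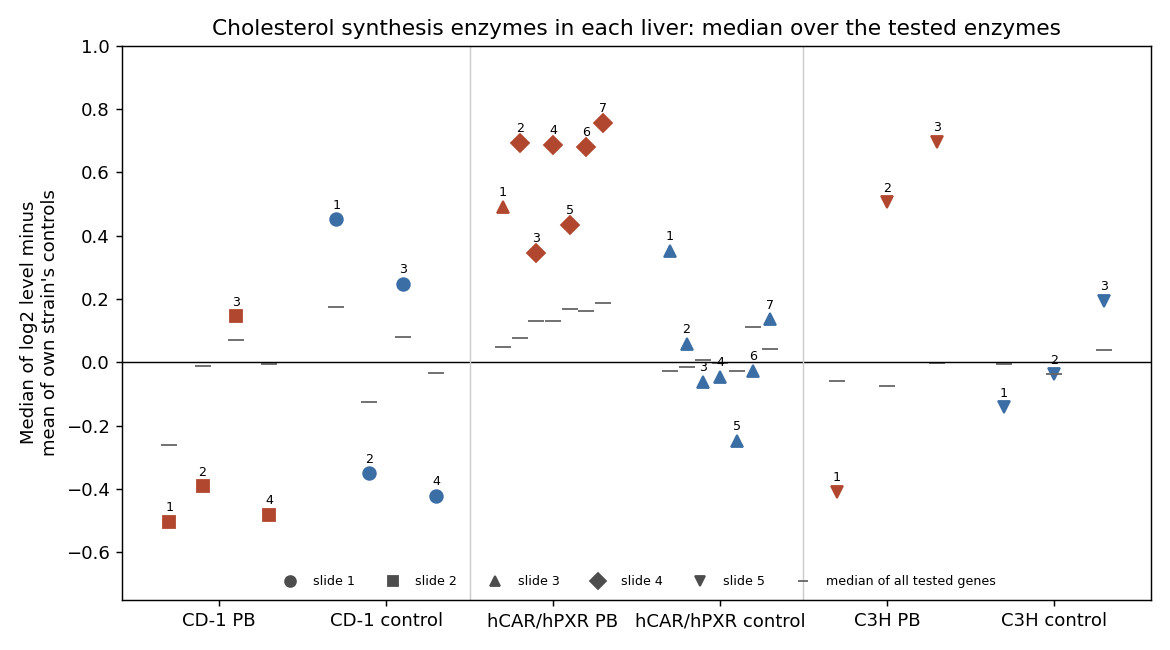
For each liver, the median over the tested synthesis enzymes (19 in hCAR/hPXR and C3H, 18 in CD-1) of the log2 level minus the mean of the same strain's controls, with the symbol giving the slide, the number the animal and the grey dash the median over all genes tested. The hCAR/hPXR PB livers lie between 0.35 and 0.76, and the C3H PB livers at -0.41, 0.51 and 0.70.

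PB minus control in CD-1 mice asked the same of livers with the mouse receptors, at a higher dose and the same 7 days. Most members were lower on average, and few passed the test. Of 25 members tested, 1 fell, Acat2, and 0 rose by limma (8 had an unadjusted p under 0.05, all of them lower), while 7.98% of 23789 genes were called (1.85% higher, 6.13% lower). The median difference was -0.47 log2 over the members and -0.04 over all genes, and 21 of 25 differences were below 0. The members' median was -0.27 with normexp background correction, and -0.21 (all genes 0.22) with the percentile taken over probes above background on all 28 arrays. Cyp51, Mylip, Npc1l1 and Abcg8 were not above background on all arrays of either group. Npc1l1 was above background in 0 of 4 PB livers and 3 of 4 controls. With its PB levels raised in the same way as for hCAR/hPXR livers, it was 1.96-fold lower with PB, again no firm minimum. Standard errors were wider here, with a median over the members of 0.33, against 0.12 in hCAR/hPXR mice.

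Acat2, which joins acetyl-CoA units at the head of the pathway, was at 2.97, 3.64, 4.06 and 3.32 in the CD-1 PB livers, against 5.35, 4.42, 5.0 and 4.55 in controls. The groups did not overlap, and the difference was -1.33 ± 0.32 (2.52-fold lower, adjusted p = 0.0234). That call was lost when control 3 or PB animal 1, 2 or 4 was left out, and with no filter on dim probes.

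Srebf2 came next, with -2.31, -4.18, -1.95 and -2.49 in the PB livers, against -1.10, -1.28, -1.0 and -1.64 in controls. Its groups were apart, and the difference of -1.48 ± 0.42 was not called (adjusted p = 0.0502). This probe was above background in 4 of 4 controls but only 2 of 4 PB livers. It entered the test only through the controls, so a lower level with PB was favoured in advance. A second Srebf2 probe was above background in 0 of 4 PB livers and 4 of 4 controls. With its PB levels raised in the same way as for Npc1l1, it was 2.67-fold lower with PB. That probe passed the filter only through the controls, so it had to be lower with PB. Ebp was at 5.84, 6.33, 6.75 and 5.89 with PB, against 7.68, 6.81, 7.38 and 6.97 in controls, again with no overlap and no call (-1.01 ± 0.31, adjusted p = 0.0611). In all, 3 members were lower with no overlap, as were 11.9% of all genes, and 0 were higher with no overlap, as were 6.54% of all genes.

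The feedback genes and the main enzymes of mevalonate and squalene were not called. Hmgcs1 was at 4.83, 4.80, 5.29 and 5.17 in PB livers, against 5.48, 4.42, 5.68 and 4.61 in controls (-0.02 ± 0.33). Sqle was at 2.81, 2.33, 3.21 and 2.59 with PB, against 2.80, 1.86, 2.78 and 1.65 in controls (0.46 ± 0.34, 95% interval -0.27 to 1.19). Insig1 was at 3.26, 3.01, 3.97 and 2.83 with PB, against 4.92, 4.03, 4.53 and 3.78 in controls. It differed by -1.04 ± 0.34 (adjusted p = 0.0748), with PB animal 3 inside the control range, and was called without that animal. Insig2 was at 3.13, 3.82, 3.83 and 3.22 with PB, against 3.69, 2.90, 3.70 and 3.29 in controls (0.10 ± 0.30).

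The remaining members were read by role. The other mevalonate enzymes Mvk, Pmvk and Mvd differed by -0.45, -0.48 and -0.53, and the isoprenoid enzymes Idi1, Fdps and Ggps1 by -0.24, -0.16 and -0.47. The 7 tested enzymes between lanosterol and cholesterol differed by -1.01 (Ebp) to 0.30 (Dhcr7), with a median of -0.19. Sc5d, at -0.90 ± 0.33 (adjusted p = 0.106), came closest to a call after Ebp. Scap, Soat2 and Abcg5 differed by -0.66 ± 0.35, -0.57 ± 0.32 and -0.97 ± 0.37, and Lss by 0.17 ± 0.27. None of these passed the test after adjustment.

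Probes of the same gene disagreed in places. Fdft1 gave -0.75 ± 0.31 with the probe that stands for it and 1.24 ± 0.49 with a second one, which was above background on 2 of 4 control arrays. Stard4 gave -0.79 ± 0.33 and 0.35 ± 0.25. Neither probe of either gene was called, so no direction is given for these.

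Per animal, the median difference of the 18 synthesis enzymes from the control mean was -0.51, -0.39, 0.15 and -0.48 in the CD-1 PB livers. The controls themselves spread from -0.42 to 0.45 and enclosed PB animals 2 and 3. Hepatocyte markers were lower in this comparison as well: 3 of 8 fell, and their summed level was 3085 to 4726 in PB livers, against 4000 to 6514 in controls. Of 5 cell cycle genes tested 2 rose, with a summed level of the list of 2.91 to 6.34 in PB livers, against 2.01 to 2.87 in controls. Of the 10 listed, 6 were above background on no control array, so any of these that was tested entered only through the PB livers. The part of either list in the Acat2 difference was not tested. When the spread was estimated from all 28 arrays, 11 members were called lower. Under that setting 6172 of 23789 genes were called, 28.3% of them higher and the rest lower.

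**Figure D4:**
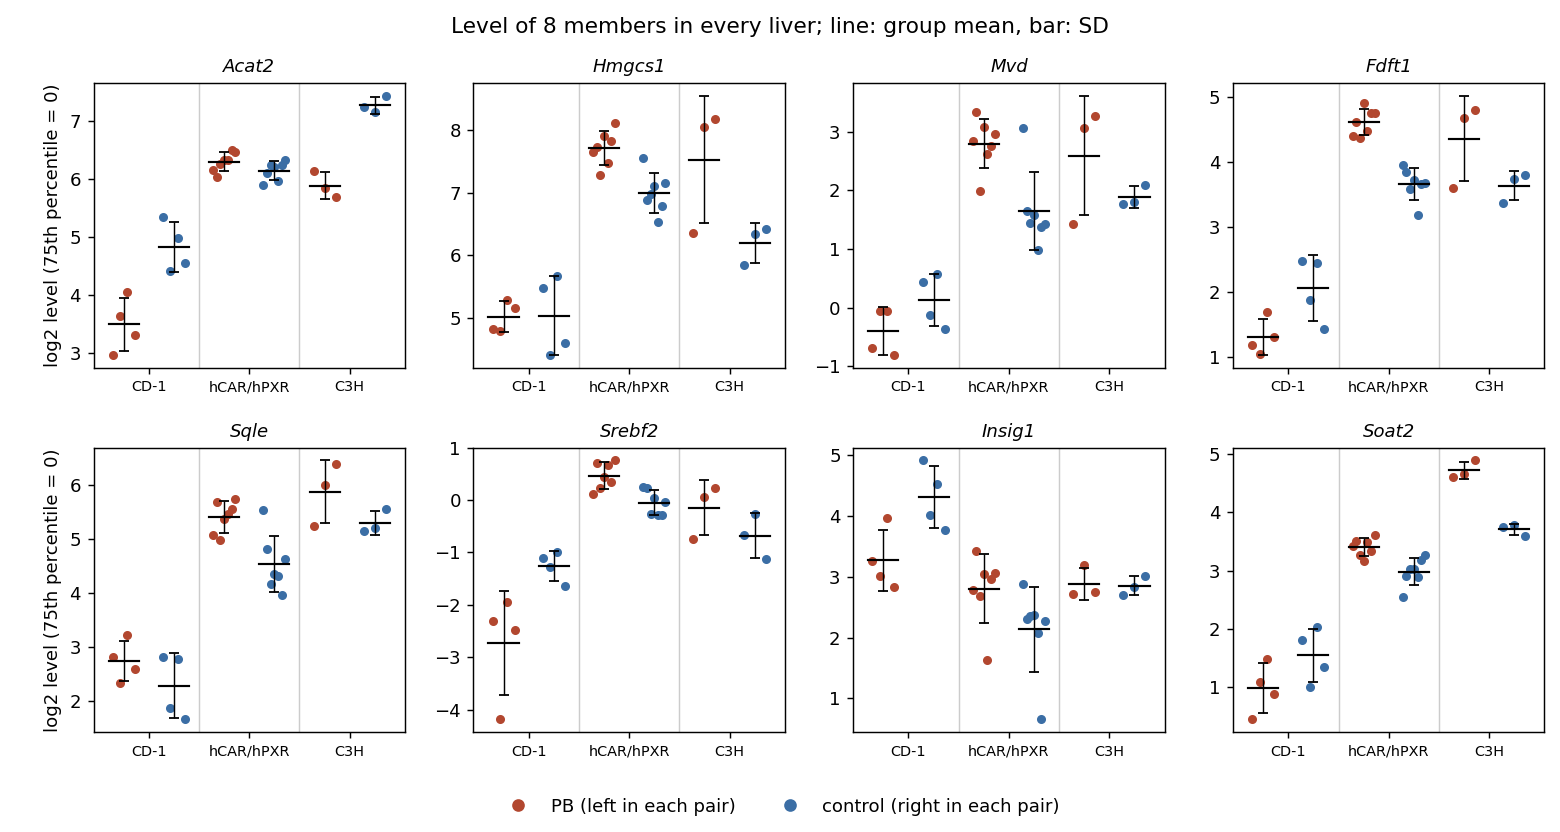
Log2 level of 8 members in every liver, PB left of control within each strain, with the group mean as a line and the SD as a bar. Acat2 is lower with PB in CD-1 and C3H but not in hCAR/hPXR livers, and C3H PB animal 1 is well below PB animals 2 and 3 for Hmgcs1, Mvd, Fdft1 and Sqle.

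In C3H mice, after 27 weeks of PB, members moved in both directions. All 29 entered the test: Soat2 rose and Acat2 fell, Npc1l1 was called higher but passed the filter only through the PB livers, and 14.7% of 18273 genes were called (7.38% higher, 7.3% lower). The median difference was 0.26 log2 over the members and -0.05 over all genes. Of 29 members 2 were higher and 4 lower with no overlap, against 17.3% and 24.3% of all genes. Of the 19 synthesis enzymes, 13 and 15 were above every control in PB animals 2 and 3, against 31.5% and 39.1% of all genes. Below every control were 3 and 2, against 43.2% and 39.7% of all genes. In PB animal 1, 1 was above and 12 were below every control, against 26.9% and 40% of all genes. Untreated livers also reached such counts. Control 3 was above every other control for 18 of the 19, against 43.8% of all genes. Control 1 was below every other control for 13, against 33.8% of all genes. These counts therefore do not set the PB livers apart from single controls.

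Acat2 was at 6.14, 5.85 and 5.69 in PB livers, against 7.25, 7.16 and 7.44 in controls. All 3 PB livers were more than 1 log2 unit below the lowest control, and the difference was -1.39 ± 0.16 (2.61-fold lower, adjusted p = 0.00582). Soat2 was at 4.60, 4.66 and 4.89 with PB, against 3.75, 3.78 and 3.59 in controls, a difference of 1.01 ± 0.13 (2.02-fold higher, adjusted p = 0.0082). The name ACAT2 is also used for the Soat2 protein, but these are different genes, and they moved in opposite directions. Npc1l1 was above background in all 3 PB livers, at -1.88, -1.28 and -1.39, and in none of the controls, at -3.48, -3.47 and -4.79. Npc1l1 passed the filter on dim probes only through the PB livers, so it had to be higher there, and its call is no evidence of a difference. With each control raised to at least the dimmest signal counted as above background on its array, the mean was 3.07-fold higher with PB. That value is no firm minimum, and the call was lost without PB animal 2. NPC1L1 is best known from the intestine. Of 4 intestinal and epithelial markers 2 were tested and limma called 0 (0 at an unadjusted p under 0.05), with Vil1 at 2.13 ± 0.95 and Fabp2 at 0.56 ± 0.37. Lct and Cdx2 were above background on no C3H array. The list's summed level was 98.1, 156 and 261 in PB livers, against 93.5, 98.2 and 131 in controls, and its part in the Npc1l1 difference was not tested.

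Of 8 hepatocyte markers 6 fell in the C3H PB livers, with a summed level of 5245 to 6673, against 8722 to 9431 in controls. All 10 cell cycle genes rose, with a summed level of 37.2 to 106, against 2.30 to 3.23 in controls. Of these Cdk1, Top2a and Bub1 were above background on no control array. They entered only through the PB livers and had to be higher there. The part of either list in the Acat2, Soat2 and Npc1l1 differences was not tested.

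The rest of the C3H comparison turned on PB animal 1. Hmgcs1 was at 6.36, 8.03 and 8.17 in PB animals 1, 2 and 3, against 5.84, 6.35 and 6.42 in controls, so 1 PB liver lay among the controls. The difference over all 6 arrays was 1.32 ± 0.49 (adjusted p = 0.109). Sqle was at 5.23, 5.99 and 6.38 with PB, against 5.14, 5.19 and 5.55 in controls (0.58 ± 0.30, adjusted p = 0.218). Mvd was at 1.42, 3.07 and 3.28 with PB, against 1.77, 1.80 and 2.10 in controls (0.70 ± 0.48). For both genes PB animals 2 and 3 were above every control.

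Without PB animal 1, limma called 13 members, 10 higher and 3 lower, among 28.7% of all genes. Those gained were Hmgcs1 at 1.90 ± 0.21 (adjusted p = 0.0033), Mvd at 1.29, Fdft1 at 1.10, Nsdhl at 1.01, Sqle at 0.89, Msmo1 at 0.80, Idi1 at 0.77 and Hsd17b7 at 0.52, all higher, and Scap at -0.58 and Mylip at -0.82. Soat2 and Acat2 kept their calls. So did Npc1l1, counted among the 10 higher, which passed the filter only through the PB livers. These values leave 2 PB livers against 3 controls.

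PB animal 1 differed in other lists too. Its summed level of the 14 circadian clock genes was 318, against 80.8 and 37.6 in PB animals 2 and 3 and 40.9 to 46.7 in controls. Its cell cycle genes summed to 37.2, against 54.9 and 106 in the other PB livers. Whether time of day or tissue sampled differed for this animal is not given, and their part in its sterol genes was not tested.

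Of the 4 C3H regulators limma called 0, and 1 had an unadjusted p under 0.05, Scap at -0.48 ± 0.15. Srebf2 was at -0.74, 0.06 and 0.24 with PB, against -0.66, -0.26 and -1.12 in controls (0.53 ± 0.32, adjusted p = 0.28). Insig1 was at 2.72, 3.19 and 2.75 with PB, against 2.71, 2.83 and 3.02 in controls (0.04 ± 0.17). Insig2 was at 5.28, 6.07 and 6.47 with PB, against 6.31, 6.25 and 6.73 in controls (-0.48 ± 0.32). The exporter subunits Abcg5 and Abcg8 differed by 0.20 ± 0.15 and 0.10 ± 0.20, and the sterol carrier Stard4 by 0.07 ± 0.24.

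Over all 6 C3H arrays the enzymes between lanosterol and cholesterol went both ways, from -0.36 (Ebp) to 0.54 (Nsdhl), with a median of 0.09 and 0 of 8 called by limma (1 at an unadjusted p under 0.05, Ebp). Ebp was below every control in each PB liver, as were Scap and Mylip, which differed by -0.62 ± 0.24. The isoprenoid enzymes Idi1, Fdps and Ggps1 differed by 0.26, 0.33 and 0.35. Fdft1 was at 3.61, 4.68 and 4.80 in PB livers, against 3.38, 3.74 and 3.80 in controls, the same split between PB animal 1 and the others as for Hmgcs1. Its difference was 0.72 ± 0.33 (adjusted p = 0.171).

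The differences between strains were then tested directly, as the PB effect in 1 strain minus that in another. The effect was more positive in hCAR/hPXR than in CD-1 livers for 17 of 25 members, while 40.2% of 16747 genes were called (29.9% more positive, 10.3% more negative). All 25 differences were above 0. Srebf2 had an effect of 0.52 in hCAR/hPXR and -1.48 in CD-1 livers, a difference of 1.99 ± 0.39 (adjusted p = 0.00047) that ran from 1.51 to 2.26 as single animals were left out. Its probe was above background in only 2 of 4 CD-1 PB livers. On the CD-1 side it entered only through the controls, which favoured a negative CD-1 effect in advance. Abcg5 differed by 1.79 ± 0.33, Insig1 by 1.71 ± 0.45, Fdft1 by 1.70 ± 0.30 and Mvd by 1.68 ± 0.47. The second CD-1 probe of Fdft1 went the other way, as given above. Hmgcs1, Sqle and Insig2 were not called. The CD-1 side of each value carries the slide that cannot be told apart from treatment. The hCAR/hPXR side carries a slide too, since all PB animals but animal 1 lay on a slide apart from their controls.

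Between C3H and CD-1 livers 6 of 25 members differed, all with the more positive effect in C3H, and 18.7% of all genes were called (13.6% more positive, 5.09% more negative). These were Srebf2 at 2.01 ± 0.48, with the same CD-1 arrays below background, Soat2 at 1.58 ± 0.31, Fdft1 at 1.47 ± 0.36, Hmgcs1 at 1.34 ± 0.47, Abcg5 at 1.17 ± 0.40 and Ggps1 at 0.82 ± 0.25. Fdft1 again rests on the probe that its second CD-1 probe opposed. Hmgcs1 and Abcg5 kept their calls in only 4 of the 14 fits that left out 1 animal, and the count of members ran from 3 to 10. Between C3H and hCAR/hPXR livers 3 of 28 members differed, all with the more negative effect in C3H, among 9.41% of all genes (3.67% more positive, 5.74% more negative). Acat2 had an effect of -1.39 in C3H and 0.15 in hCAR/hPXR livers (difference -1.54 ± 0.27, adjusted p = 0.000624), Ebp differed by -0.90 ± 0.28 and Dhcr7 by -0.76 ± 0.24. Ebp kept its call in 4 and Dhcr7 in 6 of the 20 fits that left out 1 animal. With the slide as a block only Acat2 was called.

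Control levels were compared across strains on the 14 control arrays. Strain, experiment, slide and, for C3H, carcinogen and time on diet differ together, and the CD-1 arrays were scanned at 5 µm, against 3 µm for the others, so these cannot be told apart. Most genes were called: 88.8% for hCAR/hPXR minus CD-1 (51.2% higher, 37.6% lower), 89.2% for C3H minus CD-1 (51.1% higher, 38.1% lower) and 50.9% for C3H minus hCAR/hPXR (31.3% higher, 19.6% lower). These values also depend on the scaling. Over all genes the median of hCAR/hPXR minus CD-1 was 0.57 as scaled here and -0.92 when the percentile was taken over probes above background on all 28 arrays. Members are therefore named only where all 5 scalings called them in the same direction. How many of all genes meet this rule was not counted, so the counts below describe the members only. Quantile normalization alone called 19096 of 22660 genes for hCAR/hPXR minus CD-1. It called 17953 of 21883 for C3H minus CD-1 and 6086 of 19731 for C3H minus hCAR/hPXR.

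By that rule 13 of 28 members were higher and 1 lower in hCAR/hPXR than in CD-1 controls, while 9 turned direction under another scaling. Higher were Hmgcs1, Idi1, Fdps, Sqle, Cyp51, Tm7sf2, Msmo1, Nsdhl, Hsd17b7, Dhcr7, Scap, Insig2 and Mylip. Cyp51 and Mylip were above background on 0 of 4 CD-1 control arrays and entered only through the hCAR/hPXR controls. They had to be higher there, so their calls are no evidence of a difference. Cyp51 averaged 1.96 in hCAR/hPXR controls and was above background on 0 of 4 CD-1 control arrays, and its fitted difference ran from 2.58 to 6.01 over the scalings. Insig1 went the other way, with a mean of 2.13 in hCAR/hPXR and 4.31 in CD-1 controls (-2.18 ± 0.33, range over scalings -3.67 to -1.37). Insig2, the other INSIG gene, averaged 5.93 in hCAR/hPXR and 3.40 in CD-1 controls (2.54 ± 0.22, range 1.05 to 2.98). Its second probe averaged 5.10 in hCAR/hPXR and 4.64 in CD-1 controls, a smaller difference of 0.47 ± 0.18.

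C3H controls gave a like picture against the same CD-1 controls: 13 members were higher, and Insig1 was lower, with means of 2.85 in C3H and 4.31 in CD-1 controls (-1.46 ± 0.40, range -3.34 to -0.93). The 13 again hold Cyp51 and Mylip, which entered only through the C3H controls and had to be higher there. The 2 comparisons share the CD-1 arrays. Between C3H and hCAR/hPXR controls Acat2, Mvk, Pmvk, Hsd17b7 and Ebp were higher and Hmgcs1 and Ggps1 lower under every scaling. A second Hsd17b7 probe went the other way, averaging 1.76 in C3H and 1.98 in hCAR/hPXR controls. So did a second Ggps1 probe, at -0.61 in C3H and -0.94 in hCAR/hPXR controls. Both directions therefore rest on 1 of 2 probes, while second probes of Mvk and Pmvk kept the direction. Acat2 averaged 7.28 in C3H and 6.15 in hCAR/hPXR controls (1.13 ± 0.18, range over scalings 0.53 to 1.13). Hmgcs1 averaged 6.20 in C3H and 7.00 in hCAR/hPXR controls (-0.79 ± 0.27, range -1.40 to -0.79), a call that was lost without C3H control 1, at -0.61.

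Genes beside the pathway were read from lists of known roles. In hCAR/hPXR livers 8 of 10 other sterol-responsive genes rose and 1 fell, with a list median of 0.55. This and the other counts in hCAR/hPXR livers stand against 35% of all genes higher and 23.2% lower, and calls over all genes were 440 with the slide as a block, against 11643 without it. Rdh11, a retinol dehydrogenase, rose by 0.97 ± 0.10, Lbr, a sterol reductase of the nuclear envelope, by 0.80 ± 0.10, and Fads1, a fatty acid desaturase, by 0.65 ± 0.08. In C3H livers Tmem97 rose by 0.84 ± 0.20 and Acss2, which makes acetyl-CoA from acetate, fell by 0.62 on the log2 scale. In CD-1 livers limma called 0 of the 10, with 3 at an unadjusted p under 0.05 (list median -0.59).

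Of 10 genes for fatty acid synthesis, PB raised 7 in hCAR/hPXR livers (list median 0.62), among them Elovl6, a fatty acid elongase, at 1.27 ± 0.16. In CD-1 livers limma called 0 of 10, with 4 at an unadjusted p under 0.05. Of 9 tested in C3H livers 1 was called, Acacb, which fell by 0.88. Of the isoprenoid branch genes 5 of 9 rose in hCAR/hPXR livers, with Nus1, of dolichol synthesis, at 0.89 ± 0.18. Pdss2, of ubiquinone synthesis, fell by 0.62 in C3H livers. Among SREBP regulators outside the members, Pgrmc1 rose by 0.57 ± 0.08 in hCAR/hPXR livers, Srebf1, which encodes SREBP1, fell by 1.12 in CD-1 livers, and Rnf145, a ubiquitin ligase of SCAP, rose by 1.87 ± 0.27 in C3H livers.

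On the way out of the liver cell, 8 of 11 genes of LXR, efflux and cholesterol esters rose in hCAR/hPXR livers, among them the acid lipase gene Lipa at 0.76 ± 0.15. In C3H livers the ester hydrolase gene Nceh1 rose by 1.29 ± 0.23. Of 8 bile acid synthesis genes, Cyp7b1, an oxysterol hydroxylase, was the only one that fell in all 3 strains, by 0.95 in hCAR/hPXR, 1.46 in CD-1 and 2.14 in C3H livers. Akr1d1 rose by 0.77 ± 0.12 in hCAR/hPXR livers, and Hsd3b7 fell by 1.24 in CD-1 livers.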

How the data were processed

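RNA from each of 28 male mouse livers was labelled with Cy3 and hybridised to 1 Agilent single-colour array of 62976 spots, per the labels' protocols. The deposited intensity values are background-subtracted, processed signals from Feature Extraction, per the file headers. The deposited value tables hold log2 values of the same arrays, whose scaling the authors' labels do not state, and they were used only as a check. Here control and outlier spots were left out, spots of a probe averaged, log2 taken and the 75th percentile of each array subtracted. The 75th percentile and the choice of the probe with the highest mean signal are the main setting. A gene was tested where its probe was well above background on every array of at least 1 group, in at least 0.5 of its spots. Tests used limma 3.58.1 in R 4.3.3 within each strain, with all 28 arrays for differences between strains and the 14 control arrays for control levels. P-values were adjusted over all genes tested (Benjamini-Hochberg, 0.05), and errors are SE with 95% intervals. The scripts were tested on simulated data.

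The labels call the arrays of a group biological replicates, and their number limits the precision. Same-numbered animals of the PB and control groups did not deviate together (correlations -0.45 to 0.06 in CD-1, -0.13 to 0.27 in hCAR/hPXR and 0.04 to 0.18 in C3H), so the numbers pair no samples. The members, the related lists and the tests were chosen with earlier results of these data known. Named individually were all members, with values per animal for up to 8 called members per strain with the largest change and for Srebf2, Insig1, Insig2, Sqle and Hmgcs1, and up to 3 called genes of each related list with the smallest adjusted p. Alternatives were other scalings, background corrections, filters and probe rules, blocks by slide or replicate number, and leaving out single animals.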

Additional observations from a re-analysis of the deposited data

Results flagged for a closer look

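Single animals stood apart from their group in 13 of the 106 gene and group combinations that could be examined, where chance gives about 1 in 20. In hCAR/hPXR PB livers these were Ebp at 7.57 in animal 1 (the others 8.06 to 8.35), Scap at 5.13 in animal 1 and Insig1 at 1.63 in animal 5. In hCAR/hPXR controls they were Mvd at 3.07, Abcg5 at 3.75 and Abcg8 at -2.63 in animal 1, Ebp at 7.16 and Insig1 at 0.65 in animal 6, and Stard4 at 3.36 in animal 5. In CD-1 livers they were Tm7sf2 at 3.82 and Scap at 1.22 in PB animal 1, Abcg5 at 2.63 in PB animal 3 and Ggps1 at -0.32 in control 2.

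The PB effect differed between strains for 26 combinations of a member and a pair of strains, by limma's interaction term at an adjusted p under 0.05. For hCAR/hPXR minus CD-1 the differences were 1.99 for Srebf2, 1.79 for Abcg5, 1.71 for Insig1, 1.70 for Fdft1, 1.68 for Mvd, 1.54 for Ebp, 1.48 for Acat2, 1.40 for Sc5d and 1.24 for Mvk. They were 1.14 for Pmvk, 0.99 for Soat2, 0.91 for Lss, 0.86 for Scap, 0.80 for Stard4, 0.70 for Hsd17b7, 0.65 for Tm7sf2 and 0.58 for Ggps1. For C3H minus CD-1 they were 2.01 for Srebf2, 1.58 for Soat2, 1.47 for Fdft1, 1.34 for Hmgcs1, 1.17 for Abcg5 and 0.82 for Ggps1. For C3H minus hCAR/hPXR they were -1.54 for Acat2, -0.90 for Ebp and -0.76 for Dhcr7. A second Stard4 probe gave -0.20 for hCAR/hPXR minus CD-1, and a second Fdft1 probe went the other way in CD-1 livers, so these directions rest on 1 probe each. The Srebf2 values against CD-1 rest on a probe above background in 2 of 4 CD-1 PB livers, which entered only through the CD-1 controls. Strain, dose, duration and slide differ together in each pair.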

How the results depend on the processing

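In CD-1 livers, where 1 member was called, the count was 4 with normexp on median signals, 2 with the percentile over probes above background on all 28 arrays, 0 with no filter (10 at an unadjusted p under 0.05), 3 when every array of both groups had to be above background, 2 with the mean of the probes that pass and 11 with all 28 arrays in 1 fit. It was 0 to 4 as single animals were left out. With replicate number as a block it was 0 (7 at an unadjusted p under 0.05), although the numbers pair no samples. In hCAR/hPXR livers the count of 22 became 0 with the slide as a block and 0 on the shared slide alone (6 and 5 at an unadjusted p under 0.05), where Ebp reversed to -0.022 under both. It was 21 to 24 without single animals and 24 with the replicate block. In C3H livers the count of 3 was 2 to 13 without single animals, lowest without PB animal 2 and highest without PB animal 1, and 3 with the replicate block.

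Between strains, the count for hCAR/hPXR minus CD-1 was 11 with the percentile over probes above background on all arrays and 13 to 17 without single animals. For C3H minus CD-1 it was 3 without C3H control 3 and 10 without CD-1 PB animal 3. For C3H minus hCAR/hPXR it was 1 with quantile normalization, 1 with the slide as a block and 1 to 4 without single animals. Of the 13 control calls for C3H minus hCAR/hPXR, quantile normalization gave 8. The replicate block gave 16, 6 and 2 for the 3 strain differences. The cause of these changes was not tested, apart from fewer arrays where some were left out.

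Counts over all genes moved too. CD-1 had 1899 calls, against 6172 with all 28 arrays, 4259 with normexp and 1164 with the replicate block, and hCAR/hPXR 11643, against 440 with the slide as a block and 251 on the shared slide alone. C3H had 2682, against 612 with no filter and 1543 with the replicate block. The share of calls that were higher was 23.2% in CD-1 livers, 33.8% with quantile normalization and 31.1% with normexp. It was 60.2% in hCAR/hPXR livers and 37.2% with the percentile over probes above background on all arrays, and 50.3% in C3H livers and 61.8% with normexp. A slide block could not be fitted in CD-1, where each slide holds 1 group, or in C3H, with 1 slide. Signal over background limits Cyp51, Mylip, Abcg8 and Npc1l1 most.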
